A study of Homo sapiens with 6 samples.

Results

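The genes described here are the 5 subunits of NF-kB and the B-cell genes that this family of transcription factors is known to induce, with its inhibitors. The list holds 41 genes, listed by known function and chosen with earlier results of these data known. Of them 38 had a probe set annotated to that gene alone, among 19775 such genes on the array. A mean level at or above 4.42, the median of all probe sets that are not controls, was reached by 30, among 12012 genes tested. BIRC3 had no probe set under its symbol in the annotation used, and BCL3 and CCL3 were reached only by probe sets annotated to several genes. MAP3K8, LTA, TNFRSF8, CD44, TNF, IL10, FSCN1 and MARCKS lay below the minimum, and their values come from a fit without it. Levels are the authors' RMA values on the log2 scale; RMA is a method that corrects background, equalises the arrays and summarises the probes of each probe set.

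NF-kB proteins work as pairs of REL-family subunits that bind a short DNA motif, the kappaB site. In resting cells, IkB proteins hold the pairs in the cytoplasm. Receptors such as CD40 set off the breakdown of IkB through the canonical pathway, or the trimming of the NFKB2 product through the non-canonical pathway. In B cells the freed pairs turn on genes for survival, costimulation, adhesion and cytokines, along with their own inhibitors.

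RNA came from Raji, Namalwa and Ramos, established lines of Burkitt lymphoma, a B-cell tumour driven by a MYC translocation. Each line gave 1 array labelled miR26a and 1 labelled empty, so the 6 arrays hold 3 per group and 2 per line. The lines had been transfected. Doxycycline at 0.5 µg/ml for 72 h, which switched on the microRNA, is listed for every sample, empty ones included. As background, Raji and Namalwa carry the Epstein-Barr virus and Ramos does not, and a latent protein of that virus activates NF-kB. Each line stands for 1 tumour, so this and every other trait of a line cannot be told apart from the line itself. No source used here says that the arrays of a line came from separate cultures beyond the miR26a and empty cells, so the spread behind the p-values may be technical. The number of arrays limits the precision.

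The arrays were of B cells by their markers: all 9 measured genes of a B-cell identity list lay above the minimum. Their summed linear level was 11580 to 11930 in Raji, 6685 to 6904 in Namalwa and 6051 to 6354 in Ramos. MS4A1, which encodes CD20, was the brightest of these genes in Raji and the largest part of the Raji sum. It differed widely, at 12.37 (miR26a) and 12.27 (empty) in Raji, 10.21 (miR26a) and 9.55 (empty) in Namalwa, 7.24 (miR26a) and 7.96 (empty) in Ramos. The list's median difference was 0.45 for Raji minus Namalwa and 0.56 for Raji minus Ramos. At a limma adjusted p below 0.05, 4 and 5 of 9 were called higher in Raji and 1 lower in each. Of all tested genes, 22.8% and 26.1% were called higher in Raji and 23.4% and 24.4% lower. Lists for other cell types were also somewhat brighter in Raji. The summed level of 10 monocyte and granulocyte genes was 137.8 to 143.9 in Raji, 115.8 to 117.0 in Namalwa and 112.2 to 114.2 in Ramos, with 9 of the 10 below the minimum on every array. For 12 T and NK cell genes, 7 of them below the minimum on every array, it was 243.7 to 252.8 in Raji, 223.2 to 223.3 in Namalwa and 212.9 to 217.8 in Ramos. Of the fibroblast genes 4 of 8 were below the minimum on every array, and of the red cell genes 0 of 4. The fibroblast sum was 276.8 to 290.5 in Raji, 217.0 to 235.8 in Namalwa and 220.5 to 225.5 in Ramos, and the red cell sum was 139.8 to 149.8, 109.7 to 119.0 and 97.36 to 102.8 in the same order of lines. CD14, the defining monocyte marker, lay at 3.30 to 3.65 on the 6 arrays. CSF1R, a macrophage receptor, was at 4.79 (miR26a) and 4.97 (empty) in Raji and at 4.21 to 4.27 on the other arrays, and was called higher in Raji than in both lines. S100A8, a myeloid calcium-binding protein, was at 4.11 (miR26a) and 3.69 (empty) in Raji and at 2.70 to 3.06 on the other arrays. The list did not share 1 direction. LYZ, FCN1, ELANE and CD163 also peaked on a Raji array, whereas CD14, S100A9, VCAN and MPO peaked on an array of another line. The part of these differences in the results was not tested. On the Namalwa empty array the ACTB control had a 3′ signal 3.58 above its 5′ signal, a sign of RNA quality that spanned 1.80 to 1.98 on the remaining arrays. EZH2, the histone methyltransferase in the study's title, had miR26a minus empty values of -0.31 in Raji, -0.76 in Namalwa and -0.61 in Ramos (limma adjusted p = 0.106).

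The kappaB motif was looked for in the promoters of these genes. RefSeq windows of 300 bases (GRCh38.p14, 250 before to 50 after the start of transcription) were searched on both strands for the kappaB consensus motif, and overlapping matches were kept. Of the 41 genes 34 had a window, and 18 (52.9%) held a match, against 13.3% of 27305 genes, 17.2% of 9697 tested genes and 11.3% of all 35116 windows. A gene with several windows has more chances of a match. The stretches below are from genes with a match, chosen among those whose levels carry the comparisons that follow. They are in gene orientation, with the bases of a match in capitals and overlapping matches run together. TRAF1, TNFAIP2, JUNB, DUSP2, CD58, ICAM1, CR2 and PLEK, also called higher in Raji than in both other lines, held no match in any window. CD40, NFKBIE and CCL4 had no window. NFKB1 and NFKBIB are shown because they hold matches and were not called between lines.
NFKB1 (chr4:102501300-102501329, plus strand): cgacgtcagtGGGAATTTCCagccaggaag
NFKB2 (chr10:102394461-102394491, plus strand): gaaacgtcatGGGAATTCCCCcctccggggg
NFKB2, another start (chr10:102395674-102395703, plus strand): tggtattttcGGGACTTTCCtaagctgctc
REL (chr2:60881517-60881547, plus strand): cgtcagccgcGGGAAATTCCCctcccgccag
NFKBIA (chr14:35404811-35404840, minus strand): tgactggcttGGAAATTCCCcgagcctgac
NFKBIB (chr19:38899931-38899961, plus strand): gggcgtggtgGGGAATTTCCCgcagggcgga
TNFAIP3 (chr6:137867182-137867223, plus strand): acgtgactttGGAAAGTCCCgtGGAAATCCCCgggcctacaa
MAP3K8 (chr10:30434429-30434458, plus strand): tgggtgccccGGGGATTCCCatgcagaaat
CD86 (chr3:122077692-122077722, plus strand): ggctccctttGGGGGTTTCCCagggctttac
LTB (chr6:31582492-31582521, minus strand): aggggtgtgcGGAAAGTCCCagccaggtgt
EBI3 (chr19:4229299-4229328, plus strand): ccccaccctcGGGGCCTTCCgagcaggggt
The window with the most matches was that of CD83, with 6, some of them overlapping. It is printed whole.
CD83 (chr6:14117522-14117821, plus strand): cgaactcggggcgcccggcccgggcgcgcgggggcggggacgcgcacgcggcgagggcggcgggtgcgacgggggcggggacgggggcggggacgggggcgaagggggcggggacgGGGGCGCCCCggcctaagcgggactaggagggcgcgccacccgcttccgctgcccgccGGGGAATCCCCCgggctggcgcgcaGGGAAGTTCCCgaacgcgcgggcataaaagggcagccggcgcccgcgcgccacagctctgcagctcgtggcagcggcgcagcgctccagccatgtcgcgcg
A match is a run of letters and not a measured binding site. Of the tested genes with a window, 10 of 18 that were called higher in Raji than in both other lines held one, as did 4 of 6 others. In REL a pair of overlapping matches began 47 bases before the start, and in NFKBIA the match began 81 bases before it.

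Between the lines, NF-kB genes were mostly highest in Raji. Against Namalwa, 21 of the 30 tested were higher in Raji and 3 lower, where 22.8% of all tested genes were called higher and 23.4% lower. Against Ramos, 22 were higher in Raji and 1 lower, where 26.1% of all genes were called higher and 24.4% lower. Namalwa was higher than Ramos for 10 and lower for 0, against 8.09% and 6.57% of all genes; 3 had an unadjusted limma p below 0.05 in the lower direction, and other settings called up to 2 lower. A call is a limma adjusted p (Benjamini-Hochberg over all 12012 genes) below 0.05. In all, 20 were called higher in Raji than in both other lines, as were 17.5% of tested genes. The median difference of the 30 was 1.04 for Raji minus Namalwa, 1.42 for Raji minus Ramos and 0.27 for Namalwa minus Ramos, where the medians over all genes were 0.05, 0.06 and 0.00. A list of germinal centre B-cell genes also differed widely between the lines: of 11 tested, 7 were higher and 4 lower in Raji against each other line, with medians of 1.48 and 1.99. The first pair of comparisons shares the Raji arrays. Some genes passed the minimum largely through Raji, so the counts describe the list and are not support. Without a minimum, Raji was higher for 23 of 38 against Namalwa and for 25 against Ramos, against 15.0% and 18.5% of 19775 genes, and 9 were higher in Namalwa than in Ramos, against 4.80%. In bulk RNA, more cells of one state and more RNA per cell cannot be told apart.

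For 16 of the 30, the arrays stood in the order Raji, Namalwa, Ramos with no overlap between lines, an order held by 9.67% of tested genes. They were NFKB2, REL, NFKBIA, NFKBIE, TNFAIP3, DUSP2, CD40, CD80, CD83, CD58, ICAM1, FCER2, CR2, LTB, EBI3 and PLEK. The step between Namalwa and Ramos was often small: of the 16, it was called for NFKBIA, TNFAIP3, DUSP2, CD83, CD58, ICAM1, CR2, LTB and PLEK.

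**Figure D1:**
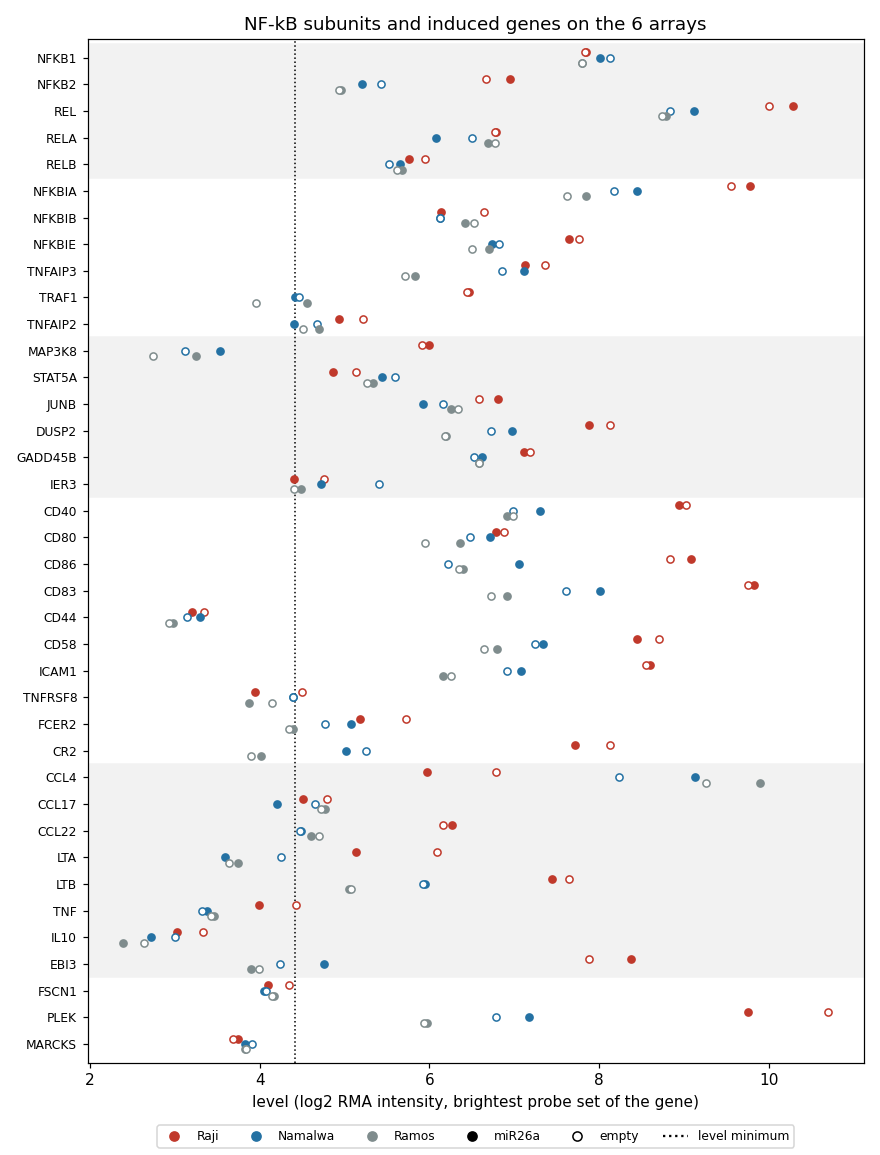
Level of each of the 38 measured genes (horizontal axis, log2 RMA intensity) on the 6 arrays; filled points are miR26a arrays, open points empty arrays, and colours mark the lines. The dotted line is the level minimum of 4.42. Raji lies to the right for most genes, and CCL4 is an exception.

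Of the REL-family subunits, 2 of 5 were called higher in Raji than in both other lines, NFKB2 and REL, against 17.5% of all tested genes. With 5 genes, this count describes the subunits only. REL, the c-Rel subunit of canonical pairs in B cells, stood at 10.28 (miR26a) and 10.00 (empty) in Raji, 9.12 (miR26a) and 8.84 (empty) in Namalwa, 8.79 (miR26a) and 8.74 (empty) in Ramos. Every Raji array was above the other 4. The difference was 1.16 (SE 0.13, 95% interval 0.87 to 1.44, limma adjusted p = 6.69e-05) for Raji minus Namalwa and 1.37 (SE 0.13, 95% interval 1.09 to 1.66, limma adjusted p = 1.85e-05) for Raji minus Ramos. All 3 further REL probe sets above the minimum differed the same way, by 1.17 to 1.57 against Namalwa and 1.42 to 1.58 against Ramos. NFKB2 makes p100, which is trimmed to the p52 subunit of the non-canonical pathway. Its level was 6.95 (miR26a) and 6.67 (empty) in Raji, 5.20 (miR26a) and 5.43 (empty) in Namalwa, 4.96 (miR26a) and 4.94 (empty) in Ramos. Raji minus Namalwa was 1.5 (SE 0.15, 95% interval 1.17 to 1.83, limma adjusted p = 2.87e-05), and Raji minus Ramos was 1.86 (SE 0.15, 95% interval 1.53 to 2.19, limma adjusted p = 5.94e-06). The other NFKB2 probe set above the minimum gave a smaller difference of the same sign, 0.78 against Namalwa and 0.82 against Ramos.

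NFKB1, RELA and RELB varied less. NFKB1, the source of the p50 subunit, was at 7.85 (miR26a) and 7.83 (empty) in Raji, 8.01 (miR26a) and 8.13 (empty) in Namalwa, 7.80 (miR26a) and 7.80 (empty) in Ramos. Its line means lay at most 0.27 apart and no comparison was called (Raji minus Namalwa -0.23, 95% interval -0.51 to 0.05; Raji minus Ramos 0.04, -0.24 to 0.32). RELA, the p65 subunit with an activation domain, was at 6.78 (miR26a) and 6.77 (empty) in Raji, 6.08 (miR26a) and 6.50 (empty) in Namalwa, 6.69 (miR26a) and 6.77 (empty) in Ramos. It was called higher in Raji than in Namalwa, by 0.49 (SE 0.14, limma adjusted p = 0.0181), a call that ended without the Namalwa miR26a array (0.29, adjusted p = 0.185) and without the Raji miR26a array (0.36, adjusted p = 0.12). Against Ramos the RELA difference was 0.05 (95% interval -0.27 to 0.37). RELB, the partner of p52, was at 5.76 (miR26a) and 5.95 (empty) in Raji, 5.65 (miR26a) and 5.52 (empty) in Namalwa, 5.68 (miR26a) and 5.62 (empty) in Ramos. RELB differed by 0.27 for Raji minus Namalwa (95% interval -0.03 to 0.57) and 0.20 for Raji minus Ramos (-0.10 to 0.50), and neither was called.

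The IkB inhibitors followed no single pattern. NFKBIA encodes IkB-alpha, which NF-kB induces to switch itself off, and stood at 9.78 (miR26a) and 9.55 (empty) in Raji, 8.45 (miR26a) and 8.18 (empty) in Namalwa, 7.85 (miR26a) and 7.62 (empty) in Ramos. Raji was highest and Ramos lowest with no overlap. NFKBIA differed by 1.35 (SE 0.12, 95% interval 1.08 to 1.62, limma adjusted p = 1.53e-05) for Raji minus Namalwa and by 1.93 (SE 0.12, 95% interval 1.66 to 2.21, limma adjusted p = 1.09e-06) for Raji minus Ramos. For Namalwa minus Ramos the difference was 0.58 (SE 0.12, adjusted p = 0.0116), and leaving out any of the Namalwa or Ramos arrays ended that call (0.56 to 0.60, adjusted p 0.0602 to 0.0994), as did a fit without the group (adjusted p = 0.0502). NFKBIE, which encodes IkB-epsilon, was at 7.64 (miR26a) and 7.76 (empty) in Raji, 6.74 (miR26a) and 6.82 (empty) in Namalwa, 6.70 (miR26a) and 6.50 (empty) in Ramos. It was higher in Raji by 0.92 than in Namalwa (limma adjusted p = 0.00037) and by 1.10 than in Ramos (limma adjusted p = 0.000103). NFKBIB, which encodes IkB-beta, was at 6.14 (miR26a) and 6.64 (empty) in Raji, 6.12 (miR26a) and 6.13 (empty) in Namalwa, 6.42 (miR26a) and 6.52 (empty) in Ramos. The Raji arrays spanned those of Ramos and lay just above those of Namalwa, no comparison was called, and its 2 other probe sets above the minimum had the opposite sign for Raji minus Namalwa.

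Of the feedback genes, TNFAIP3 encodes A20, an enzyme that edits ubiquitin chains and damps NF-kB signalling. It was at 7.13 (miR26a) and 7.36 (empty) in Raji, 7.11 (miR26a) and 6.86 (empty) in Namalwa, 5.83 (miR26a) and 5.71 (empty) in Ramos, so Ramos stood apart below Raji and Namalwa. Raji minus Ramos was 1.47 (SE 0.15, 95% interval 1.15 to 1.80, limma adjusted p = 2.65e-05) and Namalwa minus Ramos was 1.22 (SE 0.15, 95% interval 0.89 to 1.54, limma adjusted p = 0.000655), whereas Raji minus Namalwa was 0.26 (95% interval -0.07 to 0.58) and was not called. TRAF1, an adaptor of TNF receptors, was at 6.47 (miR26a) and 6.44 (empty) in Raji, 4.42 (miR26a) and 4.46 (empty) in Namalwa, 4.56 (miR26a) and 3.96 (empty) in Ramos. Namalwa and Ramos were near the minimum and overlapped, and Raji was higher by 2.01 than Namalwa (limma adjusted p = 8.78e-06) and by 2.19 than Ramos (limma adjusted p = 4.38e-06). TNFAIP2, a TNF-induced gene, lay between 4.40 and 5.22 on the 6 arrays. It was called higher in Raji, by 0.53 against Namalwa and 0.47 against Ramos, and both calls ended without the Raji empty array (0.41, adjusted p = 0.104 and 0.34, adjusted p = 0.158). The first also ended without the Namalwa miR26a array (0.42, adjusted p = 0.124), and the second without the Ramos empty array (0.23, adjusted p = 0.414). The probe sets annotated jointly to BCL3, a nuclear IkB-like cofactor, and MIR8085 had line means of 4.76 and 5.34 in Raji, 4.38 and 4.84 in Namalwa and 4.43 and 4.71 in Ramos; they were not tested.

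**Figure D2:**
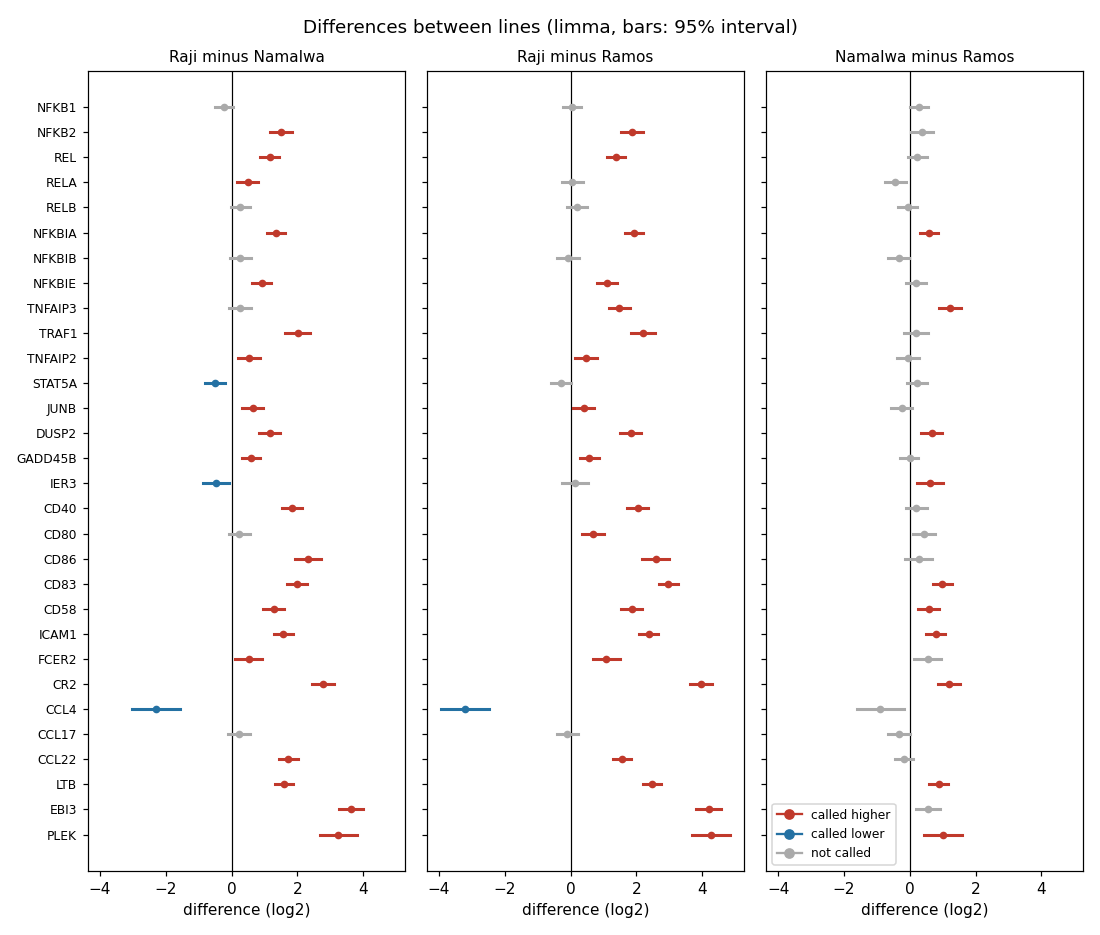
Differences between lines for the 30 tested genes (horizontal axis, log2), one panel per comparison; points are limma estimates, bars 95% intervals, and colours mark calls. Raji minus Namalwa and Raji minus Ramos lean right, with CCL4 far to the left at -2.31 and -3.21.

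Among signalling and transcription genes, the kinase MAP3K8, also called TPL2, which NFKB1 p105 holds inactive, was seen above the minimum in Raji alone. Its level was 5.99 (miR26a) and 5.91 (empty) in Raji, 3.53 (miR26a) and 3.12 (empty) in Namalwa, 3.25 (miR26a) and 2.74 (empty) in Ramos. In the fit without a minimum Raji minus Namalwa was 2.63 (limma adjusted p = 2.30e-07) and Raji minus Ramos 2.96 (limma adjusted p = 8.25e-08). The Namalwa and Ramos values are signals near background, so these sizes are rough. DUSP2, a phosphatase of MAP kinases, was at 7.88 (miR26a) and 8.13 (empty) in Raji, 6.97 (miR26a) and 6.73 (empty) in Namalwa, 6.20 (miR26a) and 6.18 (empty) in Ramos. It was higher in Raji by 1.16 than in Namalwa (limma adjusted p = 0.000148) and by 1.82 than in Ramos (limma adjusted p = 6.34e-06). Its Namalwa minus Ramos call (0.66, adjusted p = 0.0151) ended without the Namalwa miR26a array (0.48, adjusted p = 0.133) or either Ramos array (0.65, adjusted p = 0.0818 without the empty one; 0.67, adjusted p = 0.0627 without the miR26a one).

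The other genes of this group differed by less than 1 log2. GADD45B, a stress-response gene that NF-kB induces, was higher in Raji by 0.59 than in Namalwa (adjusted p = 0.00358) and by 0.57 than in Ramos (adjusted p = 0.00375). Its 3 other probe sets above the minimum gave 0.01 to 0.54 against Namalwa and 0.38 to 0.58 against Ramos. JUNB, an AP-1 subunit, was called higher in Raji by 0.65 and 0.40, but the call against Namalwa ended without the Namalwa miR26a array (0.50, adjusted p = 0.052). The JUNB call against Ramos ended without the Raji miR26a array (0.20, adjusted p = 0.345), the Ramos empty array (0.44, adjusted p = 0.12) or the Ramos miR26a array (0.35, adjusted p = 0.216). It also ended in the fits without a minimum (adjusted p = 0.0573), with the most variable probe set per gene (adjusted p = 0.0595), with arrays centred on their medians (0.35, adjusted p = 0.0783) and without the group (adjusted p = 0.0502). STAT5A, a cytokine-activated transcription factor, was lower in Raji than in Namalwa by -0.51 (adjusted p = 0.0111), a call that ended without the Namalwa empty array (-0.49, adjusted p = 0.0679) or the Raji miR26a array (-0.39, adjusted p = 0.0836). IER3, an immediate early gene, lay between 4.40 and 5.40, and the top value was the Namalwa empty array. Raji minus Namalwa was -0.48 (adjusted p = 0.0461) and Namalwa minus Ramos 0.61 (adjusted p = 0.0436). Without the Namalwa empty array, which also had the high ACTB 3′ to 5′ difference, these were -0.21 (adjusted p = 0.444) and 0.34 (adjusted p = 0.338). The first call also ended without either Raji array (-0.51, adjusted p = 0.074 without the empty one; -0.45, adjusted p = 0.107 without the miR26a one), and the second without the Ramos empty array (0.31, adjusted p = 0.526). Both also ended without a minimum (adjusted p = 0.0616 and 0.0572), with the most variable probe set (adjusted p = 0.0615 and 0.0619) and without the group in the fit (adjusted p = 0.111 and 0.121), and the second when the arrays were quantile normalized again (0.57, adjusted p = 0.0569).

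Of 8 receptor, adhesion and costimulation genes tested, 7 were called higher in Raji than in Namalwa, all but CD80, and 8 higher than in Ramos, where 22.8% and 26.1% of all genes were called. Their median difference was 1.70 against Namalwa and 2.20 against Ramos. CR2 encodes complement receptor 2 (CD21), which is also the receptor of the Epstein-Barr virus. It was at 7.72 (miR26a) and 8.13 (empty) in Raji, 5.02 (miR26a) and 5.25 (empty) in Namalwa, 4.01 (miR26a) and 3.90 (empty) in Ramos, in 3 separate steps. CR2 differed by 2.79 (SE 0.15, 95% interval 2.46 to 3.12, limma adjusted p = 3.77e-07) for Raji minus Namalwa and by 3.97 (SE 0.15, 95% interval 3.64 to 4.30, limma adjusted p = 3.16e-08) for Raji minus Ramos. Namalwa minus Ramos was 1.18 (SE 0.15, limma adjusted p = 0.000866), although Ramos lay below the minimum. CD83, a surface protein of activated B cells and dendritic cells, was at 9.83 (miR26a) and 9.75 (empty) in Raji, 8.01 (miR26a) and 7.61 (empty) in Namalwa, 6.92 (miR26a) and 6.73 (empty) in Ramos. The steps were 1.99 (SE 0.13, adjusted p = 1.96e-06) for Raji minus Namalwa and 0.98 (SE 0.13, adjusted p = 0.00123) for Namalwa minus Ramos. It is the gene whose promoter is printed whole.

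CD40, the receptor for the T-cell ligand CD40L and an activator of both NF-kB pathways, was at 8.94 (miR26a) and 9.02 (empty) in Raji, 7.30 (miR26a) and 6.99 (empty) in Namalwa, 6.91 (miR26a) and 6.98 (empty) in Ramos. Raji was higher by 1.83 than Namalwa (limma adjusted p = 5.36e-06) and by 2.04 than Ramos (limma adjusted p = 2.27e-06), and its 3 other probe sets gave larger differences, 2.62 to 2.84 and 3.11 to 3.50. CD86, a ligand of CD28 that costimulates T cells, was at 9.08 (miR26a) and 8.84 (empty) in Raji, 7.06 (miR26a) and 6.22 (empty) in Namalwa, 6.40 (miR26a) and 6.35 (empty) in Ramos. Raji minus Namalwa was 2.32 (SE 0.18, adjusted p = 5.82e-06) and Raji minus Ramos 2.59 (SE 0.18, adjusted p = 2.41e-06), while Namalwa and Ramos overlapped. CD80, the other CD28 ligand, lay between 5.95 and 6.88. It was called in Raji against Ramos alone, by 0.68 (adjusted p = 0.00381), and without the Ramos empty array the difference was 0.50 (adjusted p = 0.0697). A second CD80 probe set above the minimum gave 1.71 for Raji minus Namalwa and 2.50 for Raji minus Ramos, so the size depends on the probe set.

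ICAM1, the adhesion ligand of LFA-1, was at 8.60 (miR26a) and 8.55 (empty) in Raji, 7.08 (miR26a) and 6.92 (empty) in Namalwa, 6.16 (miR26a) and 6.26 (empty) in Ramos. ICAM1 differed by 1.57 for Raji minus Namalwa (limma adjusted p = 8.05e-06), 2.37 for Raji minus Ramos (limma adjusted p = 4.09e-07) and 0.79 for Namalwa minus Ramos (limma adjusted p = 0.00336); for the last, 1 of 2 other probe sets had the opposite sign (-0.17). CD58, the ligand of CD2 on T cells, was at 8.45 (miR26a) and 8.70 (empty) in Raji, 7.34 (miR26a) and 7.25 (empty) in Namalwa, 6.80 (miR26a) and 6.64 (empty) in Ramos. The differences were 1.28 (limma adjusted p = 6.15e-05) for Raji minus Namalwa and 1.86 (limma adjusted p = 4.29e-06) for Raji minus Ramos. For Namalwa minus Ramos the CD58 call (0.58, adjusted p = 0.0225) ended without the Namalwa empty array (0.64, adjusted p = 0.0761), the Namalwa miR26a array (0.51, adjusted p = 0.137) or the Ramos empty array (0.46, adjusted p = 0.255). FCER2 encodes CD23, the low-affinity IgE receptor, and was at 5.18 (miR26a) and 5.72 (empty) in Raji, 5.07 (miR26a) and 4.77 (empty) in Namalwa, 4.39 (miR26a) and 4.35 (empty) in Ramos. It was higher in Raji than in Ramos by 1.08 (limma adjusted p = 0.000899). Its call against Namalwa (0.53, adjusted p = 0.0393) ended without the Namalwa empty array (0.26, adjusted p = 0.387) or the Raji empty array (0.18, adjusted p = 0.467), and in the fits without a minimum (adjusted p = 0.0516) and without the group (adjusted p = 0.0508). TNFRSF8 (CD30) and the hyaluronan receptor CD44 lay at 3.87 to 4.50 and 2.93 to 3.34 and were not called in the fit without a minimum.

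The cytokine subunit EBI3, which pairs into IL-27 and IL-35, had the largest difference between Raji and Namalwa of the 30 genes. It stood at 8.38 (miR26a) and 7.88 (empty) in Raji, 4.76 (miR26a) and 4.24 (empty) in Namalwa, 3.90 (miR26a) and 3.99 (empty) in Ramos. Both Ramos arrays and 1 Namalwa array were below the minimum, so the sizes are rough. EBI3 differed by 3.63 (SE 0.17, 95% interval 3.26 to 4.01, limma adjusted p = 1.30e-07) for Raji minus Namalwa and by 4.19 (SE 0.17, 95% interval 3.82 to 4.56, limma adjusted p = 4.72e-08) for Raji minus Ramos. LTB, lymphotoxin beta, forms a membrane ligand with lymphotoxin alpha, and was at 7.44 (miR26a) and 7.64 (empty) in Raji, 5.95 (miR26a) and 5.93 (empty) in Namalwa, 5.05 (miR26a) and 5.07 (empty) in Ramos. Its 3 lines were apart: Raji minus Namalwa was 1.60 (limma adjusted p = 6.94e-06) and Namalwa minus Ramos 0.88 (limma adjusted p = 0.00185). TNF lies between LTA and LTB on chromosome 6. LTA, lymphotoxin alpha, was at 5.14 (miR26a) and 6.09 (empty) in Raji, 3.59 (miR26a) and 4.25 (empty) in Namalwa, 3.74 (miR26a) and 3.64 (empty) in Ramos. In the fit without a minimum it was higher in Raji by 1.70 than in Namalwa (limma adjusted p = 0.000126) and by 1.93 than in Ramos (limma adjusted p = 4.48e-05). TNF itself, at 3.32 to 4.43, reached the minimum on the Raji empty array alone; the same fit called it higher in Raji by 0.86 and 0.77. IL10, at 2.39 to 3.33, was below the minimum on every array. The same fit called it higher in Raji than in Ramos, by 0.67 (limma adjusted p = 0.00193), on levels near background.

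The chemokines did not share 1 direction. CCL22, a ligand of CCR4, was at 6.27 (miR26a) and 6.16 (empty) in Raji, 4.49 (miR26a) and 4.48 (empty) in Namalwa, 4.61 (miR26a) and 4.70 (empty) in Ramos. It was higher in Raji by 1.73 than in Namalwa (limma adjusted p = 3.61e-06) and by 1.56 than in Ramos (limma adjusted p = 6.50e-06). CCL17, the other CCR4 ligand, lay at 4.20 to 4.79 with overlapping lines and was not called in any comparison. CCL4, a chemokine that B cells release after receptor stimulation, was the 1 gene of the 30 called lower in Raji against both lines, and was at 5.97 (miR26a) and 6.78 (empty) in Raji, 9.13 (miR26a) and 8.23 (empty) in Namalwa, 9.90 (miR26a) and 9.26 (empty) in Ramos. Ramos was highest and Raji lowest. Raji minus Namalwa was -2.31 (SE 0.32, 95% interval -3.03 to -1.58, limma adjusted p = 0.000298), and Raji minus Ramos was -3.21 (SE 0.32, 95% interval -3.93 to -2.48, limma adjusted p = 3.02e-05). The size against Namalwa rests on single Raji arrays: it was -1.52 if the miR26a one was left out and -3.09 if the empty one was. CCL4 has near-identical gene copies, so its probe set may read more than 1 gene. CCL3 is its neighbour on chromosome 17. The probe set annotated jointly to CCL3, CCL3L1 and CCL3L3 had line means of 8.19 in Raji, 8.85 in Namalwa and 9.70 in Ramos, and was not tested. Raji and Namalwa overlapped for it: the Raji empty array, at 8.84, lay above the Namalwa empty array, at 8.23.

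Of the cytoskeletal genes, PLEK differed strongly. It encodes pleckstrin, a substrate of protein kinase C in blood cells, and was at 9.75 (miR26a) and 10.70 (empty) in Raji, 7.17 (miR26a) and 6.78 (empty) in Namalwa, 5.97 (miR26a) and 5.94 (empty) in Ramos. Raji minus Namalwa was 3.25 (SE 0.26, 95% interval 2.68 to 3.82, limma adjusted p = 6.41e-06) and Raji minus Ramos was 4.27 (SE 0.26, 95% interval 3.69 to 4.84, limma adjusted p = 8.20e-07), and its other probe set above the minimum gave 2.98 and 4.79. Namalwa minus Ramos was 1.02 (adjusted p = 0.0266), a call that ended without the Namalwa miR26a array (0.59, adjusted p = 0.241) or the Ramos empty array (0.87, adjusted p = 0.069). FSCN1, an actin-bundling protein, and MARCKS, a membrane-bound kinase substrate, were below the minimum on every array and were not called.

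Related lists were counted in the same fit, where 22.8% of all genes were called higher and 23.4% lower for Raji minus Namalwa, and 26.1% higher and 24.4% lower for Raji minus Ramos. These lists too were written with earlier results of these data known, so their counts are a description. Differences between the lists were not tested. The adaptor and kinase list had 24 tested genes. Against Namalwa 6 were higher in Raji and 7 lower (median 0.07), and against Ramos 5 were higher and 5 lower (median 0.03). FBXW11, part of the ubiquitin ligase that marks IkB, averaged 9.47 in Raji, 8.59 in Namalwa and 8.48 in Ramos. TRAF5, a TNF receptor adaptor, averaged 6.65 in Raji, 6.01 in Namalwa and 5.86 in Ramos. TAB2, a partner of the kinase TAK1, averaged 6.93 in Raji, 7.82 in Namalwa and 7.74 in Ramos, and the kinase IRAK1 averaged 9.40, 10.00 and 10.22 in the same lines. All 4 were called against both lines by limma, with the larger adjusted p at 0.000447 for FBXW11, 0.00581 for TRAF5, 0.00419 for TAB2 and 0.00373 for IRAK1. Of 10 receptors, 3 were higher and 4 lower in Raji than in Namalwa (median 0.10), and 4 higher and 2 lower than in Ramos (median 0.02). FAS, the death receptor, averaged 9.17 in Raji, 5.37 in Namalwa and 5.15 in Ramos. TLR9, the receptor for CpG DNA, averaged 6.10, 5.64 and 4.90 in the same lines. TNFRSF17, the BCMA receptor of plasma cells, averaged 5.09 in Raji, 7.05 in Namalwa and 6.52 in Ramos, and TNFRSF1B, a TNF receptor, averaged 4.53, 5.80 and 5.74.

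Of 15 further inhibitors, 9 were higher and 2 lower in Raji than in Namalwa (median 0.45), and 6 were higher and 0 lower than in Ramos (median 0.30). Those that differed most were NKIRAS1, which slows IkB breakdown (6.89 in Raji, 5.27 in Namalwa, 5.34 in Ramos), the A20 partners TNIP1 (8.48, 7.23 and 7.0) and TNIP2 (7.55, 6.78 and 6.51), and the ubiquitin ligase ITCH (7.85, 7.34 and 6.79). Of 25 other NF-kB-induced genes, 13 were higher and 8 lower than in Namalwa (median 0.36), and 14 higher and 4 lower than in Ramos (median 0.51). The survival gene BCL2A1 had means of 8.49 in Raji, 5.55 in Namalwa and 2.77 in Ramos, the last below the minimum. RGS1, a brake on chemokine receptors, averaged 7.04 in Raji, 3.74 in Namalwa and 3.29 in Ramos, with only Raji above the minimum. CXCL10, a chemokine, averaged 6.18, 3.72 and 3.79, also with only Raji above the minimum. GCH1, the first enzyme of biopterin synthesis, averaged 10.31, 8.24 and 7.52. Of 19 host genes known to rise in Epstein-Barr virus latency III, 14 were higher and 3 lower than in Namalwa (median 1.18), and 16 higher and 2 lower than in Ramos (median 0.91). Beyond BCL2A1 and FAS, which it shares with other lists, this list was led by the integrin ITGB2 (8.53 in Raji, 6.19 in Namalwa, 4.38 in Ramos) and the phosphatase DUSP22 (10.48, 8.79 and 7.65). The Ramos mean of ITGB2 was below the minimum. GPR183 of the same list went the other way and was called lower in Raji than in both lines (5.42 in Raji, 6.28 in Namalwa, 7.02 in Ramos). Viral RNA was not analysed here.

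**Figure D3:**
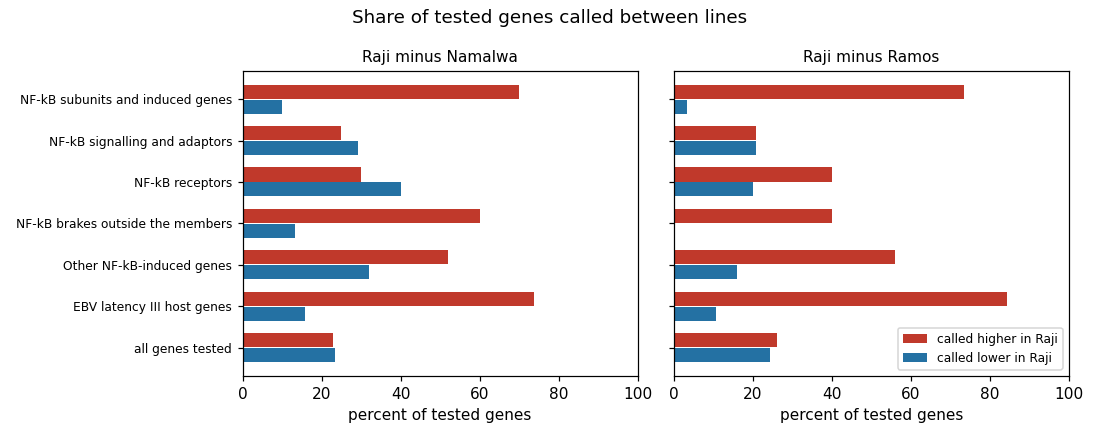
Percent of tested genes called higher (red) or lower (blue) in Raji (horizontal axis), against Namalwa on the left and Ramos on the right, for the NF-kB genes, 5 related lists and all genes tested. The adaptor list has about as many genes lower as higher, with 6 against 7 and 5 against 5.

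The groups were also compared: miR26a minus empty, with the line as a block, asks whether inducing the microRNA changed these genes. The mature miR-26a-5p of RefSeq, encoded by MIR26A1 on chromosome 3 and MIR26A2 on chromosome 12, is printed with its seed, bases 2 to 8, in capitals; the labels do not name the arm.
hsa-miR-26a-5p: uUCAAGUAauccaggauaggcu
None of the 30 NF-kB genes was called, with 0 higher and 0 lower against 0% and 0% of all genes. The smallest limma adjusted p of a member was 0.319, for CD86. At an unadjusted limma p below 0.05 the count was 3 higher (CD86, EBI3 and NFKBIA) and 0 lower of 30, against 668 higher and 880 lower of 12012 genes. The median difference of the 30 between the groups was -0.11 in Raji, 0.10 in Namalwa and 0.05 in Ramos, where all genes had -0.02, -0.01 and -0.01. The 5 related lists had 0 calls each. With 1 pair of arrays per line, a difference between lines in this change could not be tested.

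Of the 30, 4 had a miR26a minus empty difference above 0 in all 3 lines and 1 below 0, against 15.5% and 19.6% of all genes. For NFKBIA the difference was 0.23 in Raji, 0.27 in Namalwa and 0.24 in Ramos, the most even of the 4 (mean 0.25, SE 0.10, 95% interval 0.02 to 0.47, limma adjusted p = 0.331). REL had 0.28, 0.28 and 0.05 in the same lines (mean 0.20, 95% interval -0.03 to 0.44, limma adjusted p = 0.461). CD86 had 0.24 in Raji, 0.84 in Namalwa and 0.05 in Ramos (mean 0.38, SE 0.15, 95% interval 0.05 to 0.71). Its Namalwa value involves the empty array with the high ACTB 3′ to 5′ difference, whose part was not tested. CD83 had 0.08, 0.40 and 0.19 (mean 0.22). NFKBIB, the gene below 0 in all lines, had -0.49, -0.02 and -0.09 (mean -0.20).

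MAP3K8, below the minimum, had 0.08 in Raji, 0.41 in Namalwa and 0.51 in Ramos, with a mean of 0.33 (limma adjusted p = 0.343 without a minimum). IL10 had -0.30, -0.28 and -0.25, but on levels near background on every array. Several wide differences within a line came with mixed signs across lines. PLEK had -0.95 in Raji, 0.39 in Namalwa and 0.02 in Ramos, LTA had -0.95, -0.66 and 0.10, and EBI3 had 0.50, 0.53 and -0.09. CCL4 had -0.81 in Raji, 0.90 in Namalwa and 0.64 in Ramos. In the fit without both Raji arrays it was the only NF-kB gene called, at 0.77 (SE 0.13, limma adjusted p = 0.0138). That fit called 203 of 12012 genes. It leaves out the line where CCL4 was lower with miR26a, and it uses the Namalwa empty array with the high ACTB 3′ to 5′ difference. Of the related lists, TLR9 (0.63 in Raji, 0.61 in Namalwa, 0.27 in Ramos), TLR7, a receptor for RNA (0.70, 0.25 and 0.31), CD70, a TNF-family ligand (0.18, 0.78 and 0.15), TNFSF9, the 4-1BB ligand (0.30, 0.48 and 0.25), and GPR183, an oxysterol receptor that guides B cells (0.15, 0.70 and 0.77), had positive differences in all 3 lines, as did NFKBIZ, an atypical IkB (0.21, 0.14 and 0.01). Negative in all 3 were MALT1, a protease of B-cell receptor signalling (-0.56, -0.07 and -0.30), TRAF5 (-0.11, -0.61 and -0.18) and OTULIN, a linear ubiquitin cleaver (-0.31, -0.26 and -0.20). None passed limma's test, with adjusted p from 0.119 for TLR9 to 0.675 for NFKBIZ.

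**Figure D4:**
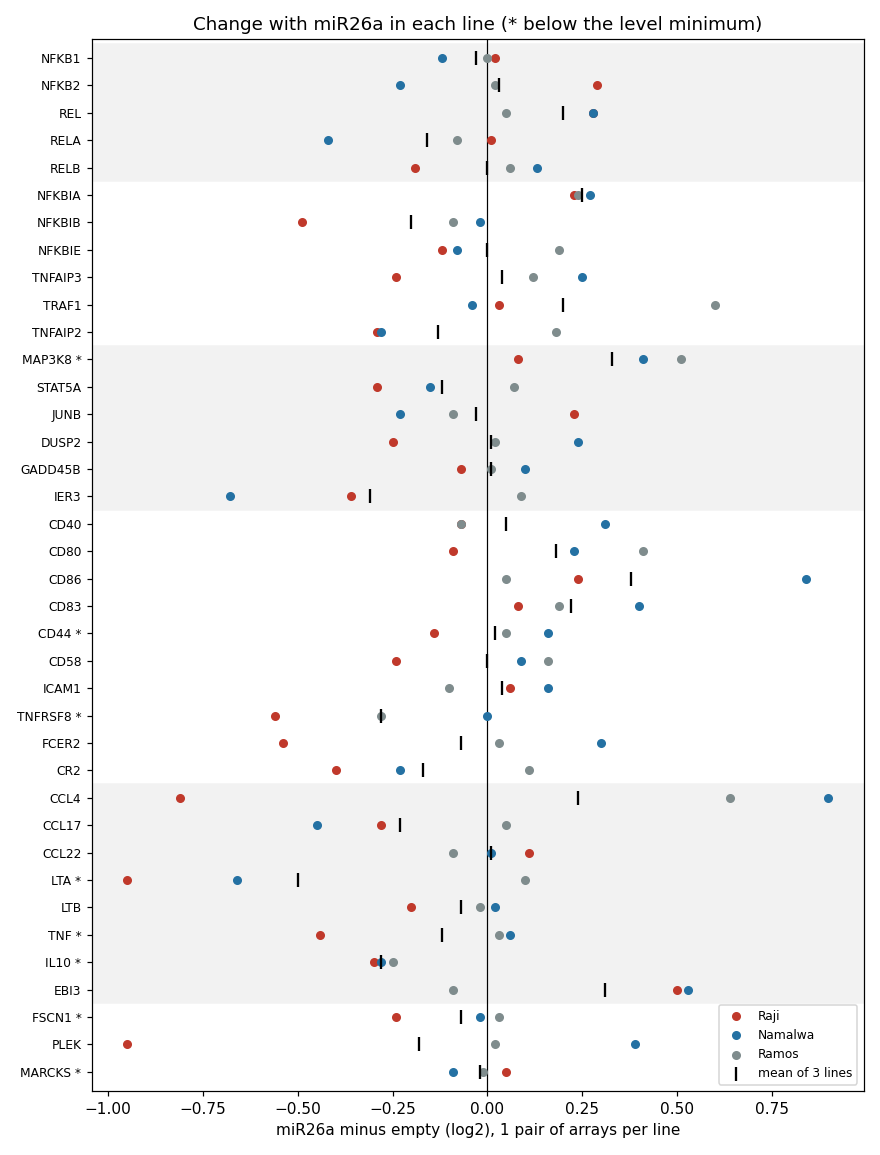
Change with miR26a for the 38 measured genes (horizontal axis, miR26a minus empty, log2); coloured points are the lines, 1 pair of arrays each, and black ticks the mean of 3 lines. Most points lie within 0.5 of 0, the lines often differ in sign, and CCL4, PLEK and LTA spread the most.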

How the data were processed

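RNA of 6 Burkitt lymphoma samples was measured on Affymetrix U133 Plus 2.0 arrays. The authors deposited RMA values on the log2 scale, per the labels' design text and the submitters' processing notes, which also name GCOS; versions and detection calls were not used here. RMA equalises the arrays' distributions (medians 4.36 to 4.44), so a shift of all RNAs would not show. Of 54675 probe sets, 62 were controls, 41091 carried 1 symbol, 1801 several and 11721 none; symbols were updated by Entrez ID with RefSeq GRCh38.p14 for 41037. A gene is its brightest single-symbol probe set by mean. limma 3.58.1 (R 4.3.3) was fitted to all 6 arrays with terms for line and group, on 12012 genes with a mean of at least 4.42, with Benjamini-Hochberg adjustment over all of them. Samples of a line share the replicate number, and their deviations from the group means correlated at 0.950 in Raji, 0.861 in Namalwa and 0.917 in Ramos. The fits and the motif search were tested on simulated data. Members and lists were chosen with earlier results of these data known. Every Rel subunit and IkB gene is given on every array, as are the other members called between lines with at least 1 log2 and those whose change has 1 sign in 3 lines and averages at least 0.3; list genes are the 4 that differ most in Raji from both lines and the 2 with the largest change of 1 sign. Other values named in the text were chosen after they were seen. Alternatives were other minimums, probe sets, scalings, priors, blocks and left-out arrays. In a fit where a line keeps 1 array, that line adds nothing to the spread behind the p-values.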

Additional observations from a re-analysis of the deposited data

Results flagged for a closer look

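CCL4 and the probe set annotated jointly to its neighbour CCL3, CCL3L1 and CCL3L3 were the measured genes with a miR26a minus empty difference of at least 0.5 log2 above 0 in some lines and at least 0.5 below 0 in another. CCL4 had -0.81 in Raji, 0.90 in Namalwa and 0.64 in Ramos (miR26a minus empty). The joint CCL3 probe set had -1.30 in Raji, 1.25 in Namalwa and 0.96 in Ramos. Its levels were 7.55 with miR26a and 8.84 with empty in Raji, 9.47 with miR26a and 8.23 with empty in Namalwa, and 10.18 with miR26a and 9.22 with empty in Ramos. With 1 pair of arrays per line the difference between lines was not tested, and the part of the RNA quality of the Namalwa empty array was not tested.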

How the results depend on the processing

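No called difference between lines turned direction under the alternatives that were run. Among differences that were not called, direction was followed only for the miR26a minus empty difference of CD86. Of 57 differences between lines called for single genes, 43 held under every alternative that tested them: 18 of 24 for Raji minus Namalwa, 20 of 23 for Raji minus Ramos and 5 of 10 for Namalwa minus Ramos. Of 778 single-gene values under alternatives, 46 lost a call made in the main setting. The 778 include values for the miR26a minus empty difference of CD86, which was not called in the main setting. With the minimum at the 75th percentile (6.19), 18 of the NF-kB genes were tested, and 14 were called for Raji minus Namalwa (24 in the main setting) and 15 for Raji minus Ramos (23); fewer genes tested is part of that setting. Requiring at least 1 log2 left 3 calls for Namalwa minus Ramos (10). Leaving out 1 array at a time gave 21 to 24 calls for Raji minus Namalwa, 20 to 23 for Raji minus Ramos and 6 to 15 for Namalwa minus Ramos, with 6 without the Namalwa miR26a array and 15 without either Raji array. For miR26a minus empty, leaving out a line gave 0 to 1 NF-kB genes called. The 1, CCL4, came without both Raji arrays. With no replicate block (the line left out of the fit) and with a random block, 0 NF-kB genes were called, as in the main setting. With no call to lose, these fits cannot show what the pairing does. Over all genes, miR26a minus empty had 0 calls, but 102 with an intensity trend and robust prior, 50 at the 75th percentile, 203 without Raji and 23 without Ramos. Without a minimum, the list of further inhibitors had 1 call for Namalwa minus Ramos (2 in the main setting). With the mean of a gene's probe sets, LTB differed by 0.97 for Raji minus Namalwa, 1.40 for Raji minus Ramos and 0.43 for Namalwa minus Ramos; for Namalwa minus Ramos NFKBIA differed by 0.36 and ICAM1 by 0.45. With the most variable probe set PLEK differed by 1.81 there. Where a value moved, the cause was not tested. Levels near the minimum limit the sizes against Namalwa and Ramos.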
